A study of Mus musculus with 2 samples.

Results

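The suppressor of cytokine signalling (SOCS) family and its relative Cish were described in RNA bound to the chromatin of restimulated mouse macrophages. The 8 genes Socs1 to Socs7 and Cish were chosen by name, and all 8 were matched among 55536 annotated genes, of which 22028 were protein coding. Macrophages had been grown from bone marrow of C57BL/6J mice and treated with lipid A, which is the portion of endotoxin sensed by Toll-like receptor 4. They received lipid A at 100 ng/ml for 12 h, spent 12 h after washout without it, and were exposed again to 100 ng/ml for 75 min. Both libraries are biological replicates of this 1 condition and carry 1 donor entry. Replicate 1 was started from 250 ng of RNA and replicate 2 from 500 ng, and ribosomal RNA was depleted. The labels do not say whether the cultures were separate, and the age and sex of the mice were not collected. Unstimulated cells and cells exposed once were not analysed here, so the values are levels and their spread between 2 libraries, with no test of a treatment.

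SOCS proteins carry an SH2 domain, which binds phosphorylated tyrosines of cytokine receptors or Janus kinases (JAKs), and a SOCS box, which recruits elongins and cullin 5 so that the bound protein is marked for destruction. Cytokines activate JAKs and STAT transcription factors, STATs switch on several SOCS genes, and the SOCS proteins then damp the signal. In macrophages SOCS1 is known to restrain interferon and Toll-like receptor responses, and SOCS3 to restrain signals of the interleukin-6 receptor chain gp130.

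Replicate 1 had 18445009 expected counts and replicate 2 had 17686824. Levels are given as TPM, a share of all transcripts that is corrected for transcript length and library depth, from a table made from alignments. A second table, made from the reads without alignment, is given beside it. By alignment, protein-coding genes held 25.9% of all TPM in replicate 1 and 28.0% in replicate 2, so levels over these genes alone are higher. The labelled cell type was checked by its markers, and 8 of 8 macrophage markers reached 1 TPM in both libraries, at a summed 978 TPM in replicate 1 and 524 TPM in replicate 2. The 4 B cell, 4 T and NK cell, 4 neutrophil and 4 fibroblast markers summed to 0.87 TPM or less per list in either library, and among them Cd79a, Pax5, Cd3e, Cd3g, Ncr1, Elane, Mpo, Ly6g and Pdgfra had 0 counts in both. The alignment-free table gave the T and NK cell markers 647 and 754 counts, against 2 and 0 in the alignment-based table. Without alignment Cd3d had 15.5 TPM in replicate 1 and 20.1 TPM in replicate 2, while Cd3e, Cd3g and Ncr1 had at most 0.539 TPM. Fibroblast markers had 472 and 540 counts without alignment, against 33 and 65 by alignment. The B cell markers had 104 and 112 against 2 and 1, and the neutrophil markers 80 and 64 against 1 and 0.

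Socs3 stood far above the rest of the family. It had 59.2 TPM in replicate 1 and 124 TPM in replicate 2, a mean of 91.5 ± 45.7 TPM (SD, n = 2), from 2322 and 4393 counts. Socs3 (ENSMUSG00000053113.3), on chromosome 11 from 117966079 to 117970047 on the minus strand (mm10), encodes a SOCS protein with a kinase-inhibitory region that blocks JAKs directly. It held 68.4% of the summed TPM of the family in replicate 1 and 77.5% in replicate 2. The next highest member lay 8.61-fold lower in replicate 1 and 14.4-fold lower in replicate 2. Expressed protein-coding genes, counted as the 9615 that reached 1 TPM in at least 1 library, had a median of 7.98 TPM, and 93.6% of them lay below Socs3. In bulk RNA, fewer cells that transcribe a gene and less RNA per cell cannot be told apart.

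Socs1, which encodes the other family member with a kinase-inhibitory region, was low. It had 1.70 TPM in replicate 1 and 2.12 TPM in replicate 2 (1.91 ± 0.297 TPM, SD, n = 2), from 75 and 85 counts. Exact Poisson intervals at 95% ran from 59.0 to 94.0 counts and from 67.9 to 105.1 counts, and cover counting error only. The values of the 2 genes did not overlap, and Socs3 was 34.8-fold higher than Socs1 in replicate 1 and 58.4-fold higher in replicate 2. Of the expressed protein-coding genes, 16.1% lay below Socs1. The gene is short, with 3297 bases on chromosome 16 (ENSMUSG00000038037.5, 10782240 to 10785536, minus strand).

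Promoter windows of these 2 genes are shown because their levels lie so far apart while both are known targets of cytokine and interferon signalling. RefSeq windows were found for 4 of the 8 members, Socs1, Socs3, Socs4 and Cish. Shown are the 250 bases before the RefSeq start on GRCm38.p6, 5′ to 3′ on the minus strand. Capitals mark matches on either strand to TTCNNNGAA, the form bound by STAT dimers (GAS), or to GAAA, 2 bases of any kind and GAAA again, the core of the element bound by interferon-activated complexes (ISRE).
Socs3 (chr11:117969367-117969616): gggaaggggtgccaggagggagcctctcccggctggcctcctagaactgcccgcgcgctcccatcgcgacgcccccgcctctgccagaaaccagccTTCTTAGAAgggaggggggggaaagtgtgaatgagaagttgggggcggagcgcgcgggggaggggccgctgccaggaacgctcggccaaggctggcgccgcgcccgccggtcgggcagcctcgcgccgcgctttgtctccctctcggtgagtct
Socs1 (chr16:10785537-10785786): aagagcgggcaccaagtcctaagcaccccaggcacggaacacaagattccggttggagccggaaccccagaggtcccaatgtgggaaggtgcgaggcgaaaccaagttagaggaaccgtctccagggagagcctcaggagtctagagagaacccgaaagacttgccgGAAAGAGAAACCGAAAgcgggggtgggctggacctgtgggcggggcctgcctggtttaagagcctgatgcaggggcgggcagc

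The Socs3 window held 1 GAS match, 154 to 146 bases before the start (117969512 to 117969520), and 7.02% of 32851 promoter windows of the same length held at least 1. It also held 1 match to GGGA, 4 bases of any kind and CC, a form bound by NF-kB, 97 to 88 bases before the start, as did 17.6% of windows. The RefSeq start of Socs3 lies 180 bases upstream of the start of its coding transcript in the annotation of the count tables. The bases between these starts were not searched. The Socs3 window is not wholly upstream of the annotated forms of the gene. It lies within the span of the noncoding form Socs3-202 (117968875 to 117970047), which had 1.07 and 4.4 counts by alignment. The noncoding form Socs3-203, with 0 counts by alignment, starts inside the window at 117969451. The first bases after the RefSeq starts of Socs3 and Socs4 were not found in their annotated transcripts. The Socs1 window held 2 overlapping ISRE core matches, 83 to 74 and 77 to 68 bases before the start, where 2.98% of windows held at least 1. Also searched on both strands were TTC and GAA with 4 bases between them (5.85% of windows), TTCCNGGAA, which is a special case of the GAS form (0.913%), and TATAAA (12.4%). None of these 3 was in the windows of Socs1 or Socs3, and none of the 6 was in those of Socs4 or Cish. The Cish window (107296409 to 107296658) lies inside the first exon of the longest coding form, which starts at 107296026. It is therefore not upstream of that form, which had 1.44 and 1.99 counts by alignment. It does lie upstream of the coding form Cish-204, which starts at 107296710 and had 15.85 and 41.17 counts. The same holds for the noncoding form Cish-202, which starts at 107296907 and had 39.7 and 218 counts. Matches describe the letters in a window and say nothing about whether a factor was bound.

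Cish, which encodes an inhibitor of STAT5 signalling that STAT5 itself induces, was low and uneven. It had 0.93 TPM in replicate 1 and 4.61 TPM in replicate 2 (2.77 ± 2.60 TPM, SD, n = 2), from 57 and 262 counts. Replicate 1 was thus below 1 TPM and replicate 2 above it, and the gene (ENSMUSG00000032578.7) lies on chromosome 9 from 107296026 to 107302784, plus strand. Growth hormone signalling is the known target of Socs2, the lowest member by alignment. Socs2 (ENSMUSG00000020027.18, chromosome 10, 95385362 to 95417180, minus strand) had 0.18 TPM in replicate 1 and 0.31 TPM in replicate 2, from 4 and 9 counts. Their exact Poisson intervals ran from 1.1 to 10.2 and from 4.1 to 17.1 counts, so the libraries could not be told apart at this depth.

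Members with a long N-terminal part, Socs4 to Socs7, formed a middle group. SOCS4 and SOCS5 are known regulators of the epidermal growth factor receptor, SOCS6 of the receptor kinase KIT and SOCS7 of insulin receptor substrates. Socs5 (ENSMUSG00000037104.9, chromosome 17, 87107679 to 87137839) had 6.08 TPM in replicate 1 and 8.61 TPM in replicate 2. Socs7 (ENSMUSG00000038485.5, chromosome 11, 97362551 to 97398542) had 6.88 and 7.41 TPM, and Socs4 (ENSMUSG00000048379.9, chromosome 14, 47276931 to 47296102) had 6.40 and 7.71 TPM. The values of these 3 genes overlapped, and their order (means of 7.35, 7.15 and 7.06 TPM) differed between the libraries. Socs6 (ENSMUSG00000056153.15, chromosome 18, 88665224 to 88927481) had 5.15 TPM in replicate 1 and 5.16 TPM in replicate 2, below all 3 in both libraries. Between 39.2% and 47.9% of expressed protein-coding genes lay below these 4 members.

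By alignment the order of means was Socs3, Socs5, Socs7, Socs4, Socs6, Cish, Socs1 and Socs2. Neighbours that overlapped between the libraries were Socs5, Socs7 and Socs4, and likewise Cish and Socs1. At least 1 TPM in both libraries was reached by 6 of 8 members, all but Cish and Socs2, against 40.1% of all protein-coding genes. The median over the members was 6.11 ± 0.474 TPM (SD between the medians of the libraries), and that of expressed protein-coding genes was 7.98 TPM. The sets are unlike, since the members' median includes Socs2, which reached 1 TPM in neither library.

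**Figure D1:**
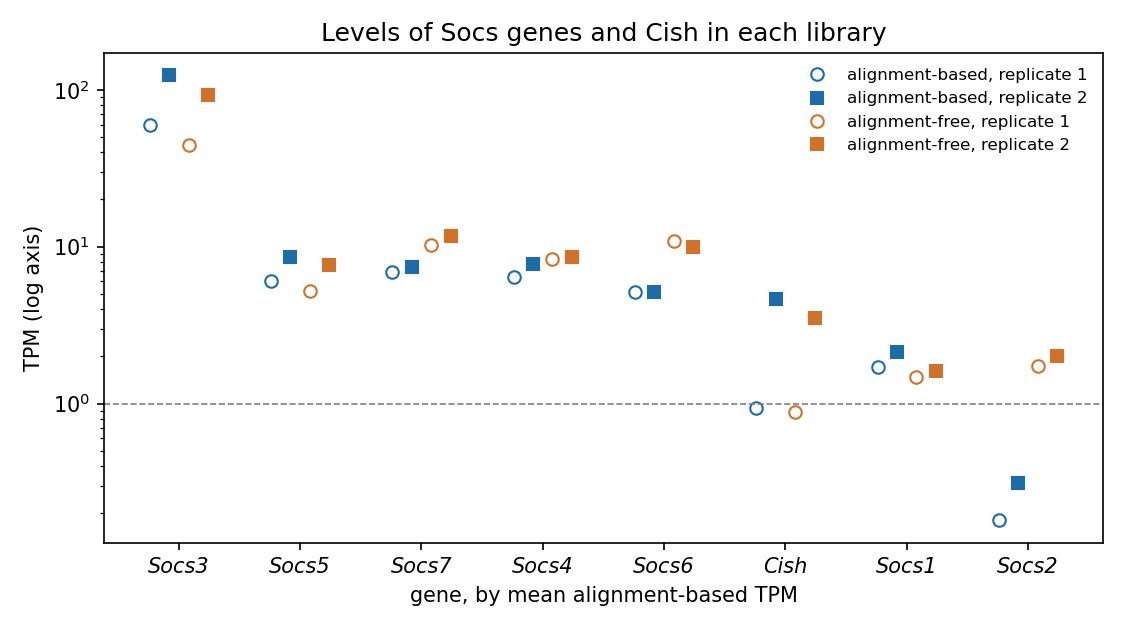
TPM of each member on a log axis, with open circles for replicate 1 and filled squares for replicate 2, in blue by alignment and in orange without it. The dashed line is 1 TPM. Socs3 lies above every other member in all 4 series, and Socs2 is the member whose series lie farthest apart, at 0.18 and 0.31 TPM by alignment against 1.74 and 2.01 TPM without it.

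The alignment-free table kept Socs3 on top and reordered most of the others. It gave Socs3 44.3 TPM in replicate 1 and 92.6 TPM in replicate 2. Socs7 (10.2 and 11.7 TPM), Socs6 (10.9 and 9.94 TPM) and Socs4 (8.30 and 8.59 TPM) followed, ahead of Socs5 at 5.19 and 7.66 TPM. Cish had 0.879 and 3.49 TPM, Socs2 1.74 and 2.01 TPM, and Socs1 1.47 and 1.61 TPM. Socs2 therefore passed 1 TPM in both libraries only without alignment, from 102.8 and 115.8 estimated counts. That was 25.7 times its expected count in replicate 1 and 12.9 times in replicate 2, while the other members lay between 1.20 and 1.99 times. The median ratio was 1.76 over 10719 protein-coding genes with a mean of at least 10 expected counts. Among 2722 genes with a mean of 1 to 10 expected counts, as Socs2 had, the median was 3.13, and 30.1% exceeded 10 times.

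The alignment-free program assigned most Socs2 counts to a form without coding exons. The transcript Socs2-206, annotated as keeping an intron, received 70.9 of the estimated counts in replicate 1 and 90.2 in replicate 2, or 69.0% and 77.9% of the gene. All 3285 bases of this transcript (95387667 to 95392967) lie outside the exons of the 7 coding Socs2 transcripts. By alignment the same transcript had 0 and 1.21 counts. The coding transcripts of Socs2 together had 19.9% and 11.6% of the estimated counts. The tables do not give where single reads lie.

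The share of TPM on noncoding forms differed between the members that have such forms. All transcripts of Socs1 and Socs4 are annotated as protein coding, so the annotation fixed their share in advance. Socs3-201, the 1 coding form of Socs3, held 99.5% of its TPM in replicate 1 and 99.1% in replicate 2. For Cish, noncoding forms held 56.5% of TPM in replicate 1 and 68.7% in replicate 2 by alignment, and 69.8% and 76.9% without it. All of this was Cish-202, which had 39.7 and 218 counts by alignment, or 69.7% and 83.2% of the gene. That transcript holds 2772 of the 2889 bases of intron 1 of the longest coding form (107297035 to 107299923). Reads of RNA not yet spliced and of RNA that keeps this intron cannot be told apart here.

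Socs5 was close to even between the classes. Socs5-202, a noncoding form of which 1768 of 2019 bases lie in intron 2 (87120809 to 87133621), held 45.4% of TPM in replicate 1 and 52.3% in replicate 2. By counts its share was 27.5% and 30.7%. It ends at 87122990, before the last exon of the coding form. For Socs7 the units disagreed, since Socs7-202, only 506 bases long, held 1.5% and 1.2% of counts but 28.9% and 23.6% of TPM. Without alignment that form held 5.5% and 5.6% of counts and 56.8% and 57.0% of TPM.

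The noncoding forms of Socs6 depended on the table as well. They held 10.1% of its TPM in replicate 1 and 4.4% in replicate 2 by alignment, and 39.0% and 39.6% without it. Most of the share without alignment was Socs6-204, with 7.04 and 1.06 expected counts but 172 and 145 estimated counts, and 82.5% of its bases lie outside all coding exons of the gene. A transcript of another class is annotated for 6 members. Of these, with TPM summed over both libraries, Cish had more than 50% on other classes by alignment. Without alignment Cish, Socs2, Socs5 and Socs7 had it. The mean of the percentages of the libraries also put Socs2 past 50% by alignment, at 50.1%, from 4 and 9 counts. Among the 8024 expressed protein-coding genes with an annotated transcript of another class, the median share by alignment was 51.3%, and 51.6% of these genes were over 50%. The share over all genes without alignment was not computed.

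**Figure D2:**
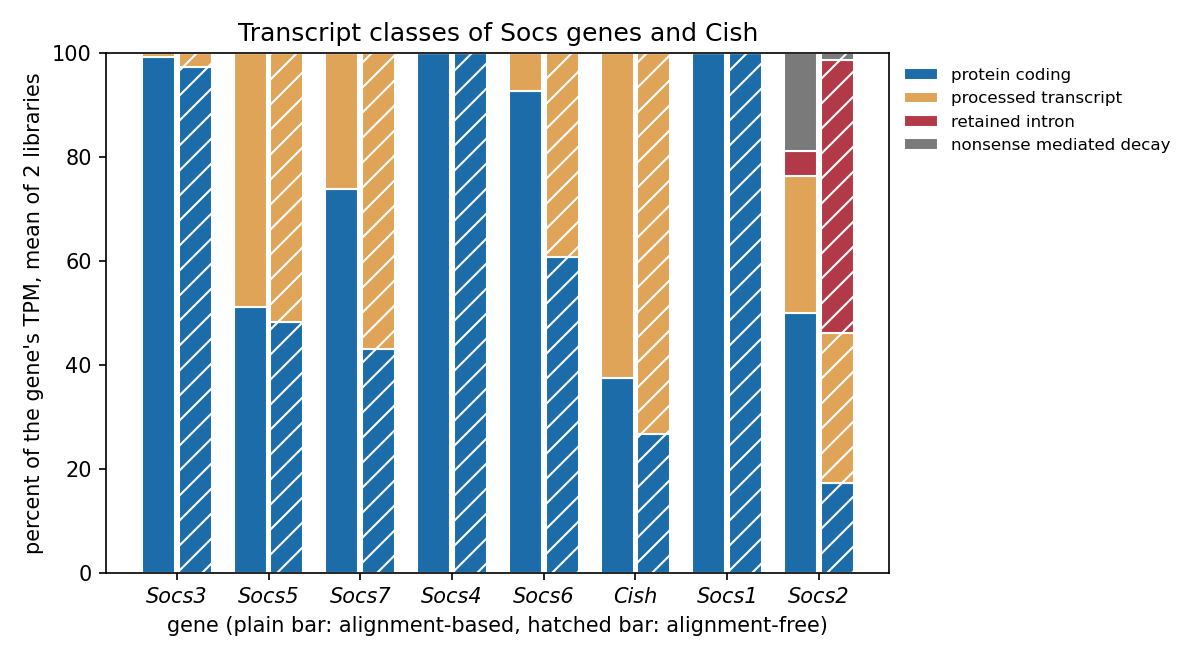
Percent of each gene's TPM on protein-coding, processed, intron-retaining and nonsense-mediated decay transcripts, as the mean of the 2 libraries. Plain bars are by alignment and hatched bars without it. Socs1 and Socs4 have only coding transcripts in the annotation. Socs3 is almost wholly coding in both, Cish is mostly noncoding in both, and Socs2, Socs6 and Socs7 differ between the tables.

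Cish and Socs3 were lower in replicate 1 by more than counting error. After scaling by the trimmed mean of M-values (TMM), the ratio of replicate 1 over replicate 2 was 0.199 for Cish, with an exact binomial counting interval of 0.147 to 0.266. For Socs3 it was 0.483 (0.459 to 0.508). These 2 of the 7 members with a mean of at least 10 counts were past 1.5-fold, both lower in replicate 1. Past 1.5-fold in either direction were 27.1% of 13922 genes, and 12.9% were lower in replicate 1 past that fold. The members' share is thus near that of all genes, and both libraries belong to 1 condition, so no test was made.

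The other members with enough counts lay within 1.5-fold. Socs5 had a ratio of 0.686 (0.589 to 0.798), Socs4 of 0.840 (0.759 to 0.930) and Socs7 of 0.876 (0.780 to 0.984), each with an interval under 1. For Socs1 (0.807, 0.583 to 1.114) and Socs6 (1.013, 0.863 to 1.189) the interval held 1, so no difference was detectable at this depth. Socs2 was under the count minimum, and its ratio of 0.406, farther from 1 than that of Socs3, had an interval of 0.091 to 1.456. By estimated counts the log2 ratio was -1.98 for Cish and -0.96 for Socs3, against -2.33 and -1.05 by alignment. The same 2 members were past 1.5-fold in that table, where 21.2% of 23347 genes were.

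**Figure D3:**
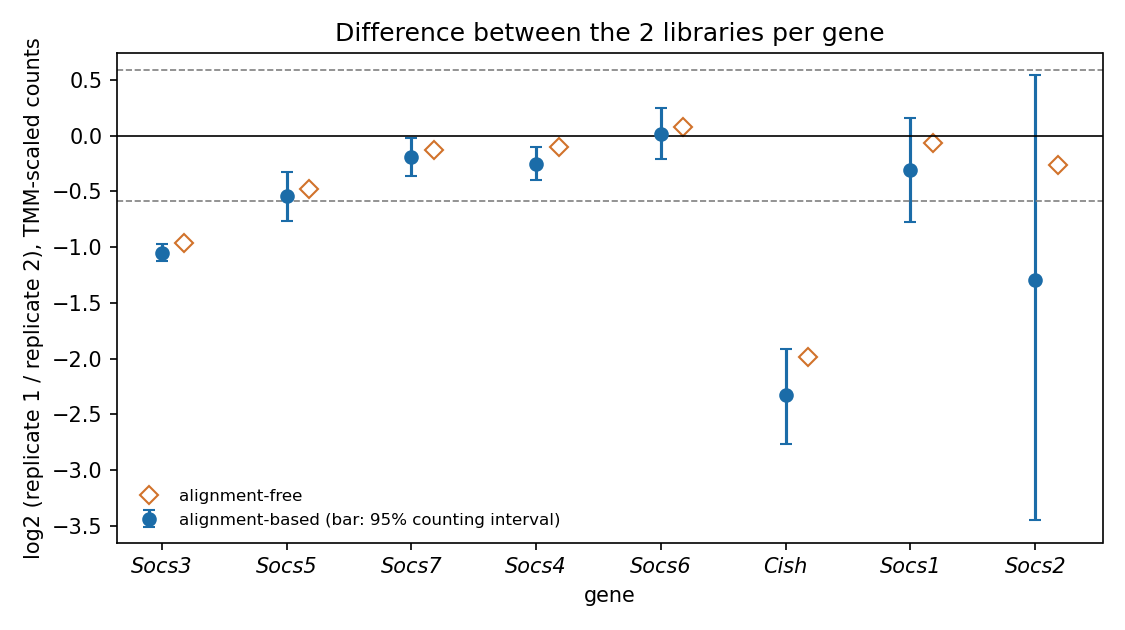
Log2 ratio of replicate 1 over replicate 2 per member after TMM scaling, with bars for the 95% counting interval, and open diamonds for the alignment-free counts. Dashed lines mark 1.5-fold. Cish at -2.33 and Socs3 at -1.05 lie wholly beyond the lower line, and the interval of Socs2 spans both sides of 0.

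Cytokine ligand genes and macrophage markers differed between the same libraries. Of the 11 ligand genes 7 had enough counts, and all 7 were lower in replicate 1 past 1.5-fold, against 12.9% of all genes. Their median log2 ratio was -1.87, and that of all genes tested was 0.006. Of 7 STAT genes, 1 was higher and 2 were lower in replicate 1 past that fold, at a median of 0.05. Of 15 receptor genes with enough counts, 1 was higher and 2 were lower, at a median of -0.19. Of the 8 macrophage markers, 5 were higher in replicate 1 past 1.5-fold and 0 lower, against 14.1% of all genes higher. The RNA input also differed, at 250 and 500 ng, and the part of any of these in the values of Cish and Socs3 was not tested.

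The 8 lists of the surrounding pathway held 92 genes, of which 72 reached 1 TPM in both libraries. Every JAK was transcribed, with a median of 71.8 ± 1.79 TPM. The median is over the gene means, and the SD (n = 2) is between the medians of the libraries, as for the lists below. That SD is thus not a spread around the stated median. The JAK medians were 66.6 TPM in replicate 1 and 69.1 TPM in replicate 2, both below 71.8 TPM. Jak2, which serves gp130, growth hormone and GM-CSF receptors, had 83.9 TPM in replicate 1 and 154 TPM in replicate 2. Tyk2, which serves interferon and interleukin-10 receptors, had 99.5 and 75.9 TPM, and Jak3 was lowest at 25.2 and 16.7 TPM. Of 7 STAT genes, 6 reached 1 TPM in both libraries, at a median of 57.0 ± 14.8 TPM. The STAT medians were 59.3 TPM in replicate 1 and 80.2 TPM in replicate 2, both above 57.0 TPM. Stat2, which acts in type I interferon signalling, was highest (402 and 369 TPM). Stat4, which mediates interleukin-12 signals, was lowest at 0.97 and 1.79 TPM.

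Ligand genes were low, with 5 of 11 genes reaching 1 TPM in both libraries. Their median was 1.49 ± 1.65 TPM, with 0.32 TPM in replicate 1 and 2.65 TPM in replicate 2. Il12b (14.2 TPM in replicate 1 and 45.3 TPM in replicate 2) and Il6 (4.39 and 16.5 TPM) were highest. Il4, Il13 and Ifng had 0 counts, which allows up to about 3 counts per library by counting error alone. This upper limit is not from the exact Poisson interval used for Socs1 and Socs2, which would reach higher. Among 19 receptor genes, 13 reached 1 TPM in both libraries, with a median of 35.9 ± 8.34 TPM. Csf2ra, a chain of the GM-CSF receptor, had 257 and 301 TPM, and Il10rb, shared by interleukin-10 and related cytokines, had 77.9 and 138 TPM. The prolactin receptor gene Prlr had 0 counts by alignment, but 2.71 and 2.53 TPM without it.

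All 8 genes of the ubiquitin ligase that SOCS boxes recruit, or of its partners, reached 1 TPM, with a median of 13.8 ± 0.686 TPM. The NEDD8-conjugating enzyme gene Ube2f had 82.2 TPM in replicate 1 and 119 TPM in replicate 2, and the ligase partner gene Arih2 had 54.5 and 64.6 TPM. Rnf7, the RING subunit that pairs with cullin 5, was lowest at 4.38 and 2.08 TPM. Of 18 genes for other SOCS-box proteins, 11 reached 1 TPM, with a median of 2.32 ± 0.516 TPM. Wsb1 (377 and 420 TPM) and Wsb2 (45.1 and 49.9 TPM) were highest, so Wsb1 exceeded Socs3 in both libraries, and Asb11 had 0 counts.

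The other inhibitors of JAK-STAT signalling all reached 1 TPM, with a median of 32.7 ± 5.04 TPM over 14 genes, against 6.11 TPM for the SOCS family. Ptprc, which encodes the phosphatase CD45, had 653 TPM in replicate 1 and 796 TPM in replicate 2, and the ubiquitin ligase gene Cbl had 95.5 and 90.8 TPM. Pias2, of the family that inhibits activated STATs, was lowest at 4.83 and 3.39 TPM. The 12 genes known as STAT targets had a median of 62.5 ± 2.25 TPM and all reached 1 TPM. Irf1 (358 and 374 TPM) and Irf7 (271 and 229 TPM), both interferon regulatory factors, led them, and Ccnd1 was lowest at 2.16 and 1.32 TPM. With 1 condition, these levels cannot show which genes the second exposure changed.

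**Figure D4:**
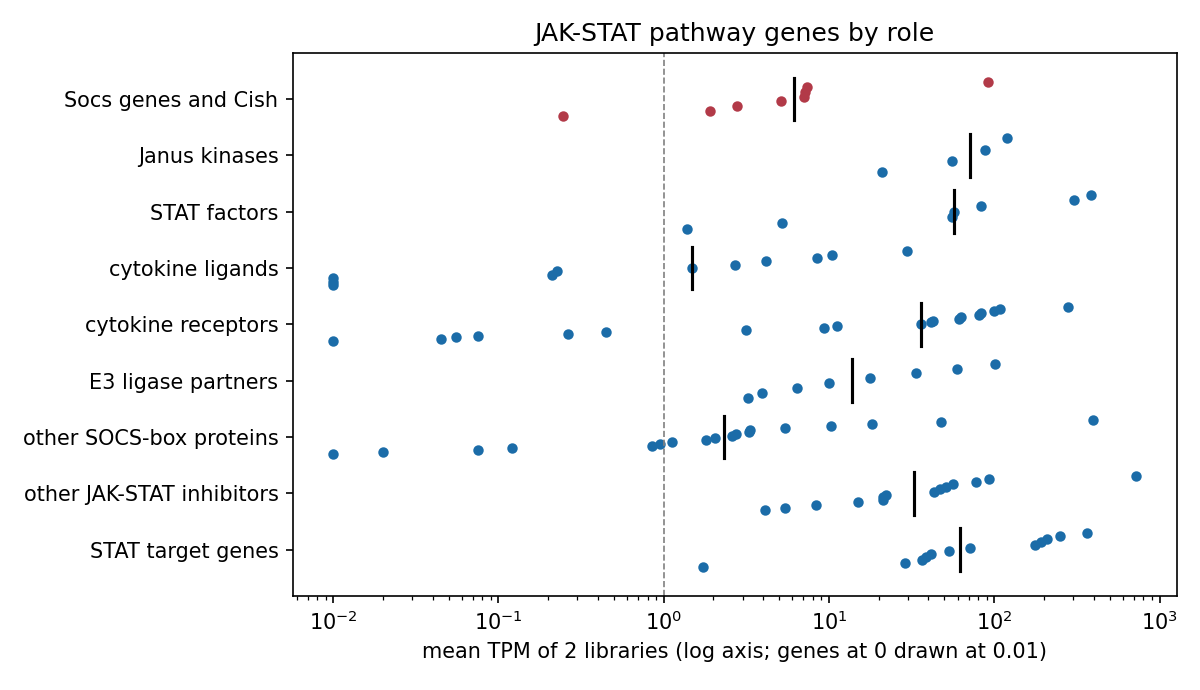
Mean TPM of the 2 libraries for each gene on a log axis, in rows by role, with the family in red and a black bar at the median of each row. Genes at 0 are drawn at 0.01, and the dashed line is 1 TPM. The family's median of 6.11 TPM lies above those of ligands and other SOCS-box genes and below those of the other rows, with Socs3 alone above 10 TPM.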

How the data were processed

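Total RNA of the chromatin fraction was measured in 2 libraries of 1 group. The deposited expected counts and TPM per gene and transcript came from alignments to mm10 with the GENCODE M21 annotation, per the authors' description files. The deposited estimated counts and TPM of a second table were made directly from the reads. The sources used here give no program, version or strand setting. Column names are those written by RSEM and kallisto, per the file headers.

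Members were matched by symbol in the transcript names. The members and lists were chosen with earlier results of these data known. Named from each list were the 2 highest genes and the lowest by mean TPM. A gene that this rule names is not reported here. Ratios used expected counts rounded to whole numbers, TMM scaling (edgeR 4.0.16) and a mean of at least 10 counts. Poisson and binomial intervals (95%, scipy 1.17.1) cover counting error only. Scaling was tested on simulated counts with counting error only and few changed genes. In the real libraries 27.1% of 13922 genes were past 1.5-fold, so that test does not show how well the ratios are scaled here. The authors' posterior SD of a count was 0 for 6 members and at most 0.77 for Cish and Socs6. Genes overlapping Cish and Socs6 had at most 1 count. Likeness of pattern was not computed, since 2 libraries of 1 condition give none. Alternatives were the second table, TPM over protein-coding genes alone, DESeq2 1.42.0 size factors, total counts, no count minimum and each replicate left out.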

Additional observations from a re-analysis of the deposited data

How the results depend on the processing

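The number of members at 1 TPM in both libraries was 6, and 6 or 7 under each alternative tried, and 2 members were past 1.5-fold between replicates under each scaling and by the alignment-free table, or 3 with no count minimum, where Socs2 joined. The median of the members, 6.11 TPM, was 7.44 TPM without alignment, 22.6 TPM over protein-coding genes alone, and between 5.62 TPM without replicate 2 and 6.29 TPM without replicate 1. Members with over 50% of the TPM summed over both libraries on other transcript classes numbered 1 (Cish), but 2 by the mean of the percentages of the libraries (Cish and Socs2, chosen after seeing the data), 2 by counts, 4 without alignment, 2 without replicate 1 and 2 without replicate 2. For Cish, leaving out 1 library leaves 0.93 or 4.61 TPM, and for Socs3 59.2 or 124 TPM. Alignment-free levels of 5 members moved by more than the SD between replicates. The cause of these shifts was not tested. No paired analysis was possible because all samples belong to 1 group.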
